A study of Mus musculus with 136 samples.

Results

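Mrc1, Marco, Mertk, Cd14 and Fpr1 encode surface receptors by which macrophages recognise what is around them, and they are 5 of the 15196 genes in the deposited table. They were chosen by symbol and were followed through every series, genotype, stimulus and time. The study asked how p50, the protein made from Nfkb1, and the nuclear IkB proteins shape the macrophage response to lipid A, the part of bacterial lipopolysaccharide that activates TLR4. RNA was sequenced in 136 libraries of macrophages grown from mouse bone marrow over 6 days with M-CSF; wild-type mice are labelled C57/B16.

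RNA bound to chromatin, most of it nascent, was measured in 113 libraries. Of these, 100 belong to the knockout series: Nfkb1-/-, Nfkbid-/-, Nfkbiz-/- and Bcl3-/- macrophages, each beside its own wild type at 0, 0.5, 1, 2 and 6 h of lipid A, with 3 replicates per genotype and time for Nfkb1 and Nfkbid and 2 for Nfkbiz and Bcl3. Wild-type macrophages pretreated with an ERK inhibitor or with DMSO gave 8 chromatin libraries at 0, 15, 30 and 60 min of lipid A, and TNFa gave 5 at 0 to 6 h. The other 23 libraries are labelled polyA RNA: 6 of macrophages overexpressing IkBz (the product of Nfkbiz) or control cells, untreated or given TNFa or lipid A for 2 h; 9 of wild-type cells with 0 to 6 h of lipid A or TNFa; and 8 of macrophages labelled J2, a name the labels do not explain, either Nfkb1-/-,Nfkb2-/- (2 replicates), Nfkb1-/- (1) or wild type (1), at 0 and 2 h of lipid A. Knockout macrophages came from knockout mice. Nothing in the labels says that replicates came from separate animals, so p-values measure the spread between these samples, which may be technical.

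Values are in RPKM, reads scaled to the length of the gene and to the depth of the library, so that levels can be compared between genes. Chromatin depth was 7.86 to 45.3 M reads per library (M, mega), and reads for a gene could be recovered from the size of the smallest step between values, with 0 and 1 read sharing a value. The table cannot check the deletions. Of the targeted genes only 2, Nfkb1 and Bcl3, have a row in it. Over the whole gene span Nfkb1 read 0.703 to 21.3 RPKM (median 7.92) in Nfkb1-/- and 1.33 to 24 (7.77) in wild-type chromatin (15 libraries each), and Bcl3 8.79 to 40.9 RPKM (median 17.5) in Bcl3-/- and 2.2 to 18.1 (9.07) in wild type (10 each). Of 8 macrophage markers, 4 are in the table, and their summed level was 3060 to 16900 RPKM in the polyA libraries, led by Lyz2. In bulk RNA, fewer cells that make a transcript and less transcript per cell cannot be told apart. Replicate 1 of the Nfkbid series, in both genotypes, stood apart: the nuclear RNA Malat1 was at 6.92 to 19.4 RPKM in its 10 libraries, against 823 to 1640 RPKM in the other 20. In those 10 libraries the granulocyte marker S100a8 read 11.1 to 34.7 RPKM and Lyz2 420 to 2800 RPKM, against 0.0258 to 0.248 and 2.87 to 31.9 RPKM in the other 20, and results that rest on it are given with and without it.

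Phagocytes carry receptors of several families with different jobs. Mrc1 (CD206) is a C-type lectin that binds mannose-bearing sugars and is a textbook marker of alternatively activated macrophages; Marco is a class A scavenger receptor for bacteria and particles; Mertk is the TAM-family receptor tyrosine kinase that takes up apoptotic cells through the bridging proteins Gas6 and protein S and dampens inflammation. Cd14 hands lipopolysaccharide to TLR4 and MD-2, and Fpr1 is the G-protein-coupled receptor for bacterial formyl peptides, best known in neutrophils.

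In the deposited table (mm9) Mrc1 spans 102611 bp at chr2:14151040-14253650 and holds the microRNA gene Mir511, whose reads cannot be separated from its own. Marco spans 30488 bp at chr1:122371114-122401601, Mertk 104094 bp at chr2:128524650-128628743, Fpr1 7470 bp at chr17:18013434-18020903 and Cd14 1753 bp. The spans differ in length, so the same RPKM stands for many more reads in Mertk than in Cd14.

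The promoters of Marco and Fpr1, the pair with the widest swings under lipid A, and of Mrc1, which moved the other way, are shown from 250 bases before to 50 bases after the RefSeq start (GRCm38.p6, gene strand), with matches to GGGNNTTNC, a short NF-kB motif, in capitals. The Marco promoter lies at chr1:120504975-120505274, minus strand, that of Fpr1 at chr17:17883890-17884189, minus strand, and that of Mrc1 at chr2:14229164-14229463, plus strand.
Marco: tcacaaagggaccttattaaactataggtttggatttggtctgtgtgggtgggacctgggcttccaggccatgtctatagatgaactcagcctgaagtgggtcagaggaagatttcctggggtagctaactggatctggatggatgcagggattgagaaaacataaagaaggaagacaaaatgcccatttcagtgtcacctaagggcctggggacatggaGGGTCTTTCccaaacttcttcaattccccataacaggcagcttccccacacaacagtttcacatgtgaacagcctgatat
Fpr1: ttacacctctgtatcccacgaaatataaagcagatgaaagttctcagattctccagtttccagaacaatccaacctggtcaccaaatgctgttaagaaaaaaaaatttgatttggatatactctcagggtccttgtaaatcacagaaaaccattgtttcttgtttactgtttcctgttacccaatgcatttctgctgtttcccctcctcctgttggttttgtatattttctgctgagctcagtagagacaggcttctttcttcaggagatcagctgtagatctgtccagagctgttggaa
Mrc1: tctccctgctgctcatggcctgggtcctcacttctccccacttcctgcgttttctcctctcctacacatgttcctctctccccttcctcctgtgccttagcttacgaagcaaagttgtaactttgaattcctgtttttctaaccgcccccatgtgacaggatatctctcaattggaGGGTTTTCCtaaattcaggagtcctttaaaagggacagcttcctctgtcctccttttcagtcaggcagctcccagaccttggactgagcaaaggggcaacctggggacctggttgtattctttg
The Marco match begins 30 bases before the start and that of Mrc1 74 bases before it, both on the gene strand. This motif was found on either strand in 15.2% of 32851 RefSeq promoters of the same length. PU.1 (GAGGAAGT, 3.2% of promoters), AP-1 (TGANTCA, 7.81%), C/EBP (TTGCNNAA, 10.8%) and interferon response (GAAANNGAA, 8.56%) motifs had no match in these windows or in that of Mertk, and no letters overlapped between matches. The windows of Mertk and Fpr1 held none of the 5 motifs.

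In wild-type macrophages lipid A moved the 5 receptors along different courses. The median of Cd14 was highest at 0.5 h, Mertk was low at 1 h but not at 2 h, Mrc1 fell from 1 h on, and Marco and Fpr1 were close to undetectable at 0 h and reached their highest level at 6 h. Over the 4 knockout series there were 10 wild-type libraries per time. Each time was set against 0 h with limma on log2(RPKM + 0.5), with the series as a term and Benjamini-Hochberg adjustment over all genes tested; a change was called at an adjusted p under 0.05 and at least 2-fold. Mrc1, Mertk and Cd14 passed the filter on low values, and 6 of their 12 changes were called, against 22.6%, 24.9%, 30.6% and 24.6% of 4260 genes at 0.5, 1, 2 and 6 h. The median over all genes tested was −0.48, −0.36, −0.40 and −0.33 at those times. Marco and Fpr1 lay under the filter and were tested on the recovered reads, as log2 of reads plus 2, per M reads. This read scale was taken up after their values were seen. Both genes passed its filter (20 reads or more in 10 libraries) through libraries given lipid A, being close to undetectable at 0 h. Their being tested at all thus rests on their level under lipid A. On the read scale 14 of the 20 changes of the 5 genes were called, against 47.4%, 52.1%, 51% and 45.1% of 7482 genes.

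Cd14, the co-receptor for the stimulus itself, read 3.47, 6.88 and 237 RPKM (lowest, median and highest of 10) at 0 h, 38, 48 and 841 at 0.5 h, 14.1, 33.6 and 1397 at 1 h, 5.19, 20.3 and 1299 at 2 h, and 2.8, 14.3 and 531 at 6 h. The highest library at every time was Nfkbid replicate 1, and without it the 0 h libraries ended at 12.3 RPKM and the medians were 5.96, 47.5, 32.8, 18.7 and 13.2 from 0 to 6 h. At 0.5 h all 10 libraries lay above their own 0 h library, by a median of 8.29-fold. The log2 difference was 2.79 ± 0.63 (SE, adjusted p = 0.000216, limma) at 0.5 h and 2.19 ± 0.63 (adjusted p = 0.00295) at 1 h; at 2 h it was 1.35 ± 0.63 (adjusted p = 0.0604), and 1.23 ± 0.26 (adjusted p = 5.2e-05) without Nfkbid replicate 1. At 1 h the call did not hold without the Nfkb1 series (2.04, adjusted p = 0.0613).

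Mertk, the apoptotic-cell receptor, read 0.531, 2.57 and 4.83 RPKM at 0 h, 0.588, 1.68 and 2.89 at 0.5 h, 0.261, 0.496 and 1.69 at 1 h, 0.263, 3.91 and 6.64 at 2 h, and 0.582, 1.76 and 4.94 at 6 h. All 10 libraries were below their own 0 h library at 1 h, and 2 of 10 were below it at 2 h. The change at 1 h was −1.43 ± 0.33 (adjusted p = 0.000252, limma) and was the single Mertk change called.

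Mrc1, the mannose receptor, read 2.29, 6.33 and 20 RPKM at 0 h, 2.1, 7.04 and 14.7 at 0.5 h, 0.95, 2.21 and 6.54 at 1 h, 0.462, 2.37 and 4.48 at 2 h, and 0.152, 0.684 and 2 at 6 h. Every 6 h library lay below every 0 h library, and the median library had 0.0742 of its own 0 h level. Mrc1 fell by 1.42 ± 0.35 at 1 h (adjusted p = 0.00056, limma), by 1.70 ± 0.35 at 2 h (adjusted p = 4.52e-05) and by 2.67 ± 0.35 at 6 h (adjusted p = 1.18e-08) on the log2 scale.

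Marco, the scavenger receptor, read 0.00188, 0.00672 and 0.0814 RPKM at 0 h, 0.00427, 0.021 and 0.0903 at 0.5 h, 0.0517, 0.128 and 0.25 at 1 h, 0.0182, 0.157 and 0.74 at 2 h, and 0.326, 2.06 and 4.72 at 6 h. All 10 libraries were above their own 0 h library at every later time, by 36.4-fold to 593-fold at 6 h. Many of the 0 h values rest on few reads, so these ratios are wide. Marco rose by 1.19 on the read scale at 0.5 h (adjusted p = 0.0455, limma), 3.70 at 1 h (adjusted p = 4.42e-08), 4.06 at 2 h (adjusted p = 5.33e-09) and 7.42 at 6 h (adjusted p = 2.02e-16); fitted changes of such low genes depend on the 2 reads added.

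Fpr1, the formyl peptide receptor, read 0.00444, 0.00926 and 0.113 RPKM at 0 h, 0.0052, 0.0168 and 0.0843 at 0.5 h, 0.0362, 0.0741 and 0.346 at 1 h, 0.105, 0.249 and 0.942 at 2 h, and 0.379, 1.21 and 8.19 at 6 h. From 1 h on, all 10 libraries were above their own 0 h library. Without Nfkbid replicate 1, which was highest at every time, the 6 h median was 132.6-fold that at 0 h. Fpr1 rose by 2.29 on the read scale at 1 h (adjusted p = 7.27e-07, limma), 3.61 at 2 h (adjusted p = 1.73e-11) and 5.87 at 6 h (adjusted p = 4.29e-18). By median level the order of the 5 genes was Cd14, Mrc1, Mertk, Fpr1 and Marco at 0 h, and Cd14, Marco, Mertk, Fpr1 and Mrc1 at 6 h. Without Nfkbid replicate 1 it was Mrc1, Cd14, Mertk, Fpr1 and Marco at 0 h, and Cd14, Mertk, Fpr1, Marco and Mrc1 at 6 h. In both orders the ranges of neighbours overlapped, except those of Mertk and Fpr1 at 0 h.

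**Figure D1:**
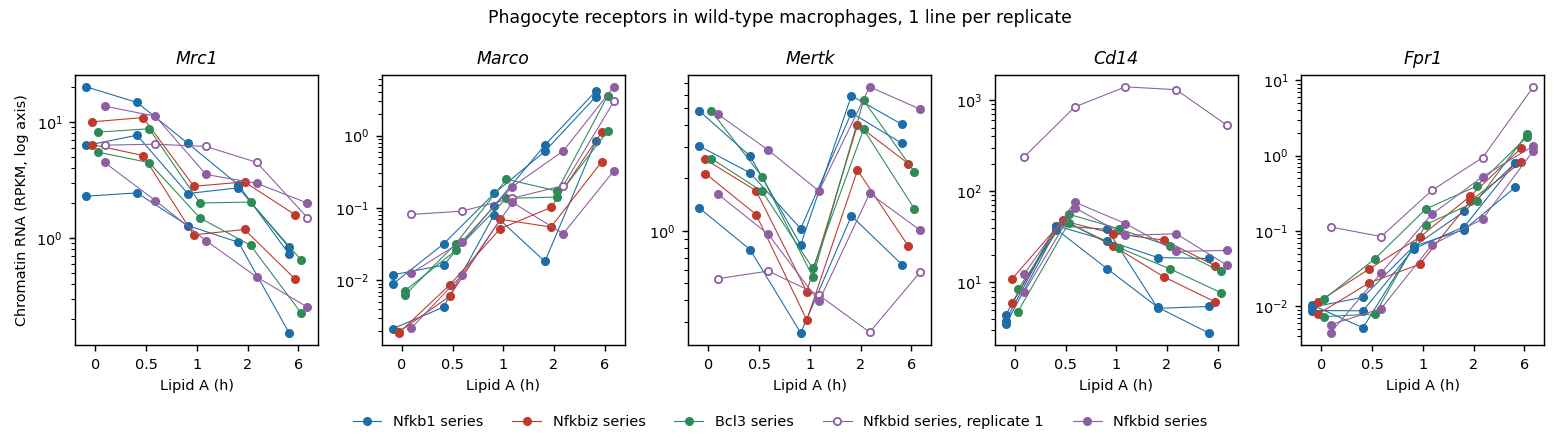
Chromatin RNA of the 5 receptors in wild-type macrophages against time of lipid A (h), in RPKM on a log axis. Each line joins the 5 libraries of 1 replicate of a knockout series (10 per time), coloured by series; Marco and Fpr1 climb by more than 10-fold, Mrc1 declines and the Cd14 median is highest at 0.5 h, with Nfkbid replicate 1 (open circles) far above the other libraries for Cd14.

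On the read scale 4 of the 5 receptors were called between Nfkbiz-/- and wild-type macrophages, in opposite directions. The calls of Fpr1, Mertk and Mrc1 depended on single libraries. Nfkbiz-/- macrophages hardly made Marco under lipid A and made less Fpr1, and at 6 h they held more Mertk and, on the read scale, more Mrc1. Each time was compared between 2 Nfkbiz-/- and 2 wild-type libraries. Of the 3 members that passed the filter, 1 change of 15 was called (Mertk at 6 h), against 0%, 0%, 0.676%, 1.37% and 5.47% of 4885 genes from 0 to 6 h. With the read scale 6 of 25 were called: Marco at 1, 2 and 6 h and Fpr1, Mertk and Mrc1 at 6 h, against 0.442% of 7921 genes (1 h), 2.16% (2 h) and 15.1% (6 h). Marco entered the counts on this scale only through its level in wild-type libraries given lipid A. Same-numbered libraries moved together in this series. With the replicate number as a block, 4 of the 15 changes were called, against 0%, 0%, 1.02%, 1.99% and 6.1% of genes from 0 to 6 h, and 8 of the 25 on the read scale, against 0%, 0%, 1.3%, 5.05% and 19.8%. The median of all genes at 6 h was −0.24 in the first fit and −0.38 on the read scale.

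At 6 h Marco read 0.0069 and 0.00677 RPKM (7 and 6 reads) in Nfkbiz-/- libraries, against 1.12 and 0.436 RPKM (893 and 459 reads) in wild-type libraries. At 2 h it was at 0.00342 and 0.00242 RPKM (3 and 2 reads) in Nfkbiz-/- libraries, against 0.102 and 0.0546 RPKM (84 and 49 reads) in wild type, and at 1 h at 0.00509 and 0.00529 RPKM (4 reads each), against 0.0517 and 0.0699 RPKM (46 and 63 reads). The groups were far apart at each of these times, with the knockout mean 11.7-fold under the wild-type mean at 1 h, 26.8-fold under it at 2 h and 113-fold under it at 6 h. At 0 h both genotypes were near the limit of counting, with 2 and 4 reads in Nfkbiz-/- libraries and 2 reads in each wild-type library, and at 0.5 h there were 5 and 2 reads in Nfkbiz-/- libraries against 9 and 6 in wild type.

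In this series Marco passed the filter of the read scale only through wild-type libraries given lipid A. That it was tested at all thus rests on its wild-type level. On the read scale the Marco difference, Nfkbiz-/- minus wild type, was −3.00 ± 0.44 at 1 h (SE, adjusted p = 0.004, limma), −3.87 ± 0.44 at 2 h (adjusted p = 0.000146) and −6.29 ± 0.44 at 6 h (adjusted p = 6.46e-07). It was called at 2 h and at 6 h whichever library was left out, with −4.31 to −3.44 at 2 h and −6.96 to −5.61 at 6 h; at 1 h it was called in 1 of the 4 such fits (−3.21 to −2.79, adjusted p 0.0383 to 0.185). The difference between the genotypes was itself larger than at 0 h, by −4.39 at 2 h (adjusted p = 0.00431) and by −6.80 at 6 h (adjusted p = 4.12e-05), while at 1 h the same contrast gave −3.52 (adjusted p = 0.0871, and 0.0134 with the block, when 0.328% of genes passed); 0.0379%, 0.417% and 3.17% of all genes passed this contrast at 1, 2 and 6 h.

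Fpr1 followed Marco in direction with a smaller gap. At 6 h it read 0.286 and 0.217 RPKM (71 and 47 reads) in Nfkbiz-/- libraries, against 1.26 and 0.822 RPKM (247 and 212 reads) in wild type, a 4.14-fold ratio of wild-type to knockout means. At 2 h it read 0.0791 and 0.108 RPKM in Nfkbiz-/- libraries, against 0.292 and 0.25 RPKM in wild type, and at 1 h 0.0312 and 0.0108, against 0.0827 and 0.0362. The knockout libraries were lower than both wild-type libraries at each of the 3 times. The 6 h difference was −1.99 ± 0.49 (adjusted p = 0.0118, limma) on the read scale and was called in 2 of the 4 fits that left out a library (−2.30 to −1.69, adjusted p 0.0349 to 0.189). The Fpr1 differences at 1 h (−1.11, adjusted p = 0.495) and 2 h (−1.45, adjusted p = 0.161) did not pass. Within the Nfkbiz-/- libraries Fpr1 went up over time, with 3 and 1 reads at 0 h and 71 and 47 at 6 h, while Marco had 2 and 4 reads at 0 h and 7 and 6 at 6 h.

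Mertk lay higher in both Nfkbiz-/- libraries than in both wild-type libraries at all 5 times. It read 3.99 and 3.05 RPKM in Nfkbiz-/- and 2.12 and 2.55 RPKM in wild type at 0 h, 1.74 and 2.2 against 1.24 and 1.69 at 0.5 h, and 0.46 and 0.71 against 0.309 and 0.449 at 1 h. The gap was wider later, with 5.41 and 8.23 RPKM in Nfkbiz-/- against 2.22 and 4.02 RPKM in wild type at 2 h, and 4.59 and 7.74 against 0.819 and 2.42 at 6 h. At 6 h the difference was 1.72 ± 0.36 (adjusted p = 0.00595, limma); it did not pass without Nfkbiz-/- replicate 2 (1.38, adjusted p = 0.0978) or without wild-type replicate 1 (1.15, adjusted p = 0.14). In 1 fit of the 4 series the 6 h difference of Mertk did not pass either (1.72, adjusted p = 0.998, limma). At 2 h Mertk was called with the block only (1.03, adjusted p = 0.0255). The change of this difference from 0 h to 6 h was 1.23 ± 0.50 (adjusted p = 0.253), when 2.95% of genes passed; with the block it passed on the read scale (1.5, adjusted p = 0.0245, when 7.61% of genes passed) and not on the RPKM scale (adjusted p = 0.055). Gas6, a Mertk ligand, read 0.115 and 0.388 RPKM in Nfkbiz-/- libraries and 0.206 and 0.516 RPKM in wild type at 6 h.

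Mrc1 separated the genotypes at 6 h, with 2.86 and 4.74 RPKM in Nfkbiz-/- libraries against 0.443 and 1.58 RPKM in wild type, a 3.75-fold ratio of knockout to wild-type means. At 2 h it read 1.27 and 2.23 RPKM in Nfkbiz-/- and 1.18 and 3.04 RPKM in wild type, and at 0 h 5.23 and 8.18 against 6.36 and 10, with overlapping groups. The 6 h difference was 1.58 ± 0.59 (adjusted p = 0.0724, limma) on the RPKM scale and 2.14 ± 0.71 (adjusted p = 0.0442) on the read scale, where it was called in 1 of the 4 fits without a library (1.22 to 3.05, adjusted p 0.0214 to 0.369). With the block Mrc1 was called at 6 h on both scales (adjusted p = 7.57e-05 on RPKM), and its difference had grown over that at 0 h (1.85 on RPKM, adjusted p = 0.000942); without the block that contrast did not pass. In both genotypes Mrc1 was lower at 1 h and 2 h than at 0 h.

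Cd14, the early member, was not called at any time without the block. At 0.5 h it read 29.2 and 43.1 RPKM in Nfkbiz-/- libraries against 48.5 and 47.5 RPKM in wild type, and at 6 h 1.99 and 7.98 against 6.15 and 15.3. At 6 h the groups overlapped, and the difference was −1.16 ± 0.72 (adjusted p = 0.245, limma). With the block it was called (adjusted p = 0.0288), and each Nfkbiz-/- library lay below the wild-type library of its own number.

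**Figure D2:**
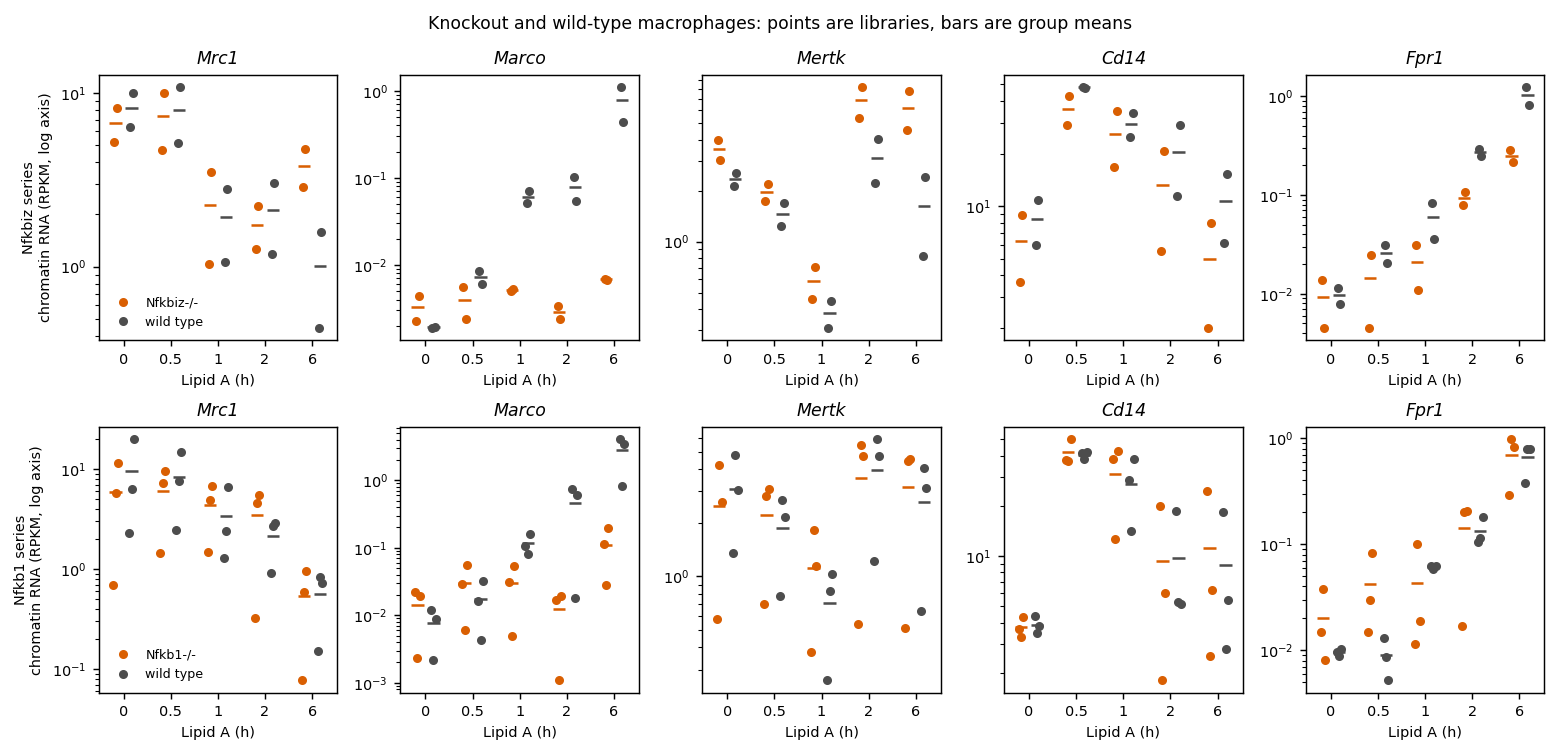
Chromatin RNA of the 5 receptors (RPKM, log axis) in knockout (left of each pair) and wild-type libraries at 0 to 6 h of lipid A in the Nfkbiz series (upper row) and the Nfkb1 series (lower row), 1 point per library, with bars at group means. In the Nfkbiz panels the Marco points of the knockout stay under 0.01 RPKM while the wild type reaches 1.12 RPKM, and in the Nfkb1 panels the knockout Marco points stay at or under 0.193 RPKM at 6 h.

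Markers of cell types were read in the same libraries. The summed level of the 4 macrophage markers at 6 h was 27.5 to 30.1 RPKM in Nfkbiz-/- libraries and 29.8 to 35.1 RPKM in wild type. Among them Lyz2 differed by −1.26 (adjusted p = 0.0638, limma), by −1.62 (adjusted p = 0.044) on the read scale, and by −1.26 (adjusted p = 0.0319) with the block. Dendritic, lymphocyte, mast cell, erythroid and stromal marker lists each summed to 0.0312 to 0.221 RPKM in Nfkbiz-/- and 0.0381 to 0.134 RPKM in wild type. Of 11 neutrophil and granulocyte precursor markers 8 are in the table, and their sum at 6 h was 0.227 to 0.333 RPKM in Nfkbiz-/- and 0.448 to 0.486 RPKM in wild type, so that it was lower in the knockout, as Fpr1 was; no marker of this list passed the filter, and its part in the Fpr1 result was not tested.

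Receptors related to the 5 were read from lists of the same families. At 6 h in Nfkbiz-/- macrophages, the mannose receptor and C-type lectin list (22 genes beside the members, 13 in the table) had 4 tested, of which 2 were lower and 0 higher, with a median difference of −0.73. Clec4a1, a C-type lectin of the DCIR group, read 0.647 and 0.364 RPKM in Nfkbiz-/- libraries and 5.68 and 3.03 RPKM in wild type (−2.23, adjusted p = 0.00172, limma). Clec4e (Mincle), which senses mycobacterial glycolipid, read 12.2 and 18.9 RPKM against 33.4 and 38.7 RPKM (−1.22, adjusted p = 0.0179). In neither gene did the groups overlap.

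Of the scavenger receptor list, Marco's family, 6 of 19 genes were tested and 0 were called at 6 h (limma), with a median of −0.18. On the read scale 8 were tested and Scarf2 was lower (−2.07, adjusted p = 0.00381), and with the block Stab1 was lower (−1.32, adjusted p = 0.00305). Of the apoptotic cell uptake list, which holds the partners of Mertk, 11 of 26 were tested and 1 was lower: Elmo1, the engulfment adaptor, at 0.69 and 0.59 RPKM in Nfkbiz-/- libraries against 3.14 and 1.99 RPKM in wild type (−1.40, adjusted p = 0.000123). Of the TLR4 complex list, Cd14's partners, 7 of 14 were tested and 1 was higher: Ly86 (MD-1), the partner of RP105, at 5.19 and 6.95 RPKM against 1.77 and 3 RPKM (1.21, adjusted p = 0.00738). Tlr4 itself read 3.25 and 3.44 RPKM in Nfkbiz-/- and 2.55 and 2 RPKM in wild type and was not called.

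Of the chemoattractant receptor list, 6 of 18 were tested and 1 was lower, Fpr2, the paralogue of Fpr1. Fpr2 read 2.08 and 2.65 RPKM in Nfkbiz-/- libraries and 7.26 and 5.84 RPKM in wild type (−1.30, adjusted p = 9.57e-05, limma), with both knockout libraries below both wild-type libraries; on the read scale it did not pass (−1.47, adjusted p = 0.0932). There Ptafr, the receptor for platelet-activating factor, was higher (1.04, adjusted p = 0.00962). Of the Fc and complement receptor list, 7 of 12 were tested and 1 was lower at 6 h, Fcgr2b, the inhibitory IgG receptor, at 3.63 and 4.69 RPKM against 14.8 and 16.8 RPKM (−1.81, adjusted p = 0.000358). At 2 h 3 of that list were lower: Fcgr2b (−1.79, adjusted p = 0.00147), Fcgr4 (−1.02, adjusted p = 0.0015, but 0.0719 on the read scale) and Fcer1g, the signalling chain shared by Fc receptors (15.2 and 18.5 RPKM against 39 and 42.4 RPKM, −1.25, adjusted p = 0.0178). Each count is of 0 to 3 genes, beside 5.47% of all genes at 6 h and 1.37% at 2 h, and nothing particular to a list is read from it.

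Marco was called lower in Nfkb1-/- than in wild-type macrophages at 6 h on the read scale, and this call depended on single libraries. None of the other 4 receptors was called. Of the 3 members that passed the filter in the Nfkb1 series, 0 of 15 changes were called with limma, 0 had an unadjusted p under 0.05, and 0%, 0.0663%, 0.641%, 0.376% and 0.31% of 4523 genes were called from 0 to 6 h. At 6 h Marco read 0.113, 0.0285 and 0.193 RPKM (30, 23 and 159 reads) in Nfkb1-/- libraries, against 4.09, 0.834 and 3.43 RPKM (2026, 737 and 2945 reads) in wild type. At 2 h it read 0.0167, 0.00108 and 0.0193 RPKM in Nfkb1-/- libraries, against 0.74, 0.0182 and 0.609 RPKM in wild type, and at 1 h 0.0309, 0.00492 and 0.0535, against 0.107, 0.081 and 0.159. The groups did not overlap at 1 h or 6 h, and at 2 h wild-type replicate 2 lay just under the highest knockout library.

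The Nfkb1-/- mean of Marco was 3.89-fold under the wild-type mean at 1 h, 36.9-fold under it at 2 h and 25-fold under it at 6 h. The read-scale difference was −2.22 ± 1.14 at 1 h (adjusted p = 1, limma), −4.14 ± 1.14 at 2 h (adjusted p = 0.16) and −4.66 ± 1.14 at 6 h (adjusted p = 0.0489), and 1 of 25 member changes was called, against 0%, 0.0143%, 0.486%, 0.515% and 0.801% of 6989 genes from 0 to 6 h. The 6 h call held in 1 of the 6 fits that left out a library, the one without wild-type replicate 2 (−5.38 to −3.89 and adjusted p 0.0136 to 0.427 over the 6). Libraries of the same replicate number moved together in this series, and with the replicate block Marco was called at 1 h (adjusted p = 0.0123), 2 h (6.95e-06) and 6 h (7.37e-07), the only calls among the members, against 0.0143%, 0.229%, 2.2%, 2.16% and 3.98% of all genes from 0 to 6 h. With the block the difference also grew over that at 0 h, by −4.73 at 2 h (adjusted p = 0.000677) and −5.25 at 6 h (adjusted p = 0.000107), when 0.472% and 0.787% of genes passed; without it these contrasts did not pass. At 0 h and 0.5 h the knockout libraries were not lower, with 0.0217, 0.0023 and 0.0191 RPKM in Nfkb1-/- against 0.0119, 0.00215 and 0.00888 RPKM in wild type at 0 h.

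Fpr1 gave no such gap: at 6 h it read 0.291, 0.986 and 0.824 RPKM in Nfkb1-/- libraries and 0.379, 0.799 and 0.798 RPKM in wild type. Its read-scale difference there was 0.02 ± 0.60 (adjusted p = 1, limma), beside −1.99 in the Nfkbiz series. The difference between these effects of the knockouts was −2.01 ± 1.69 (adjusted p = 1) in a fit of all 4 series, so the knockouts were not shown to differ in their effect on Fpr1, and for Marco at 6 h the same contrast gave −1.63 ± 1.65 (adjusted p = 1); 0.0822% of 8518 genes passed it. Fpr2 read 2.67, 7.73 and 9.65 RPKM in Nfkb1-/- and 3.1, 7.87 and 8.31 RPKM in wild type at 6 h.

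Mertk and Mrc1 in the Nfkb1 series followed the replicate number more than the genotype. Mertk at 6 h read 0.512, 4.42 and 4.54 RPKM in Nfkb1-/- libraries and 0.639, 4.05 and 3.15 RPKM in wild type, and Mrc1 at 0 h read 0.695, 5.7 and 11.4 RPKM against 2.29, 6.26 and 20. In both genotypes replicate 1 was the lowest for these genes. For Cd14 replicate 1 was the highest at 6 h, with 24.7, 2.54 and 6.27 RPKM in Nfkb1-/- and 18.3, 2.8 and 5.45 RPKM in wild type, while at 0.5 h all 6 libraries lay between 37.3 and 50.4 RPKM. Among related receptors Fcer1g was lower in Nfkb1-/- macrophages at 1 h (−2.22, adjusted p = 0.000317, limma) and 2 h (10.3, 15.5 and 21.2 RPKM against 51, 35.1 and 49 RPKM; −1.53, adjusted p = 0.0318).

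Bcl3-/- and Nfkbid-/- macrophages showed no called change of any member, with all 5 tested at 5 times. In both series limma called 0 of 25 member changes and 0% of all genes at every time (4740 genes for Bcl3, 5367 for Nfkbid), and 0 of the 25 had an unadjusted p under 0.05; the read scale called 0 as well. At 6 h Marco read 0.848 and 1.79 RPKM in Bcl3-/- libraries and 3.58 and 1.16 RPKM in wild type, and Fpr1 1.18 and 1.88 against 1.95 and 1.79. Mertk read 1.85 and 1.29 RPKM in Bcl3-/- and 2.18 and 1.34 RPKM in wild type, Mrc1 0.323 and 0.781 against 0.225 and 0.643, and Cd14 3.09 and 20 against 7.73 and 13.2. The groups overlapped for all 5 receptors at 6 h.

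In the Nfkbid series Marco at 6 h read 0.791, 0.305 and 2.9 RPKM in Nfkbid-/- libraries and 2.97, 0.326 and 4.72 RPKM in wild type. Fpr1 read 8.28, 0.843 and 0.892 RPKM against 8.19, 1.34 and 1.17, with replicate 1 several-fold above the others in both genotypes. Mrc1 read 0.991, 1.34 and 0.273 RPKM in Nfkbid-/- and 1.49, 2 and 0.254 RPKM in wild type, and Mertk 0.827, 4.41 and 1.2 against 0.582, 4.94 and 1. Cd14 read 897, 18.6 and 12.3 RPKM in Nfkbid-/- and 531, 15.5 and 22.4 RPKM in wild type. Without replicate 1 the count of calls was again 0 of 25. With replicate 1 in the fit, the Nfkbid series had the widest spread of the 4 (median residual SD 0.74 on the log2 scale, against 0.19 in the Nfkbiz series). A given difference is thus harder to detect in that fit. The spread without replicate 1 is not given here.

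The remaining chromatin and polyA series have 1 library per condition, except for the J2 double knockout, so the values below are those of single libraries with no test outside the J2 cells, and a change is named at 2-fold or more on RPKM + 0.5. Macrophages overexpressing IkBz held more Marco and Fpr1 and less Mrc1 than control macrophages, already before any stimulus. At 0 h, 3.93% of 6510 genes differed by 2-fold or more between the libraries, 3.99% after TNFa and 3.69% after lipid A. Marco read 12.9 RPKM in the IkBz-overexpressing and 0.228 RPKM in the control library at 0 h, 6.24 and 1.13 after 2 h of TNFa, and 4.09 and 2.58 after 2 h of lipid A, so the ratio was 56.6, 5.53 and 1.58. In the overexpressing cells Marco was lower after lipid A than at 0 h, and short of 2-fold lower after TNFa, and in the control cells it was higher after either stimulus.

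Fpr1 read 10.6 RPKM in the IkBz-overexpressing and 0.152 RPKM in the control library at 0 h, 15.7 and 1.11 after TNFa, and 20.1 and 3.02 after lipid A, ratios of 69.5, 14.2 and 6.65. Mrc1 read 7.4 RPKM with IkBz and 115 RPKM in control at 0 h, 6.59 and 122 after TNFa, and 10.2 and 115 after lipid A, which is 15.6-fold, 18.5-fold and 11.3-fold lower. Mertk stayed within 2-fold, at 13.2 RPKM with IkBz and 11.2 RPKM in control at 0 h, 7.27 and 5.5 after TNFa, and 5.15 in both after lipid A. Cd14 read 118 RPKM with IkBz and 200.3 RPKM in control at 0 h, 349 and 573 after TNFa, and 649 and 815 after lipid A, each less than 2-fold apart.

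Neutrophil and granulocyte precursor markers moved with IkBz in these libraries. The sum of the 8 in the table was 151 to 217 RPKM in the 3 overexpressing libraries and 14.4 to 19.1 RPKM in the 3 control libraries. At 0 h S100a8 read 112 RPKM against 7.18, Mpo 16.5 against 1.53, Elane 17 against 1.21 and Prtn3 19.7 against 1.83. The macrophage marker sum was 11500 to 16900 RPKM with IkBz and 6790 to 9340 RPKM in control, with Csf1r at 467 and 559 RPKM at 0 h. The part of other cells in the Fpr1, Marco and Mrc1 values was not tested.

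**Figure D3:**
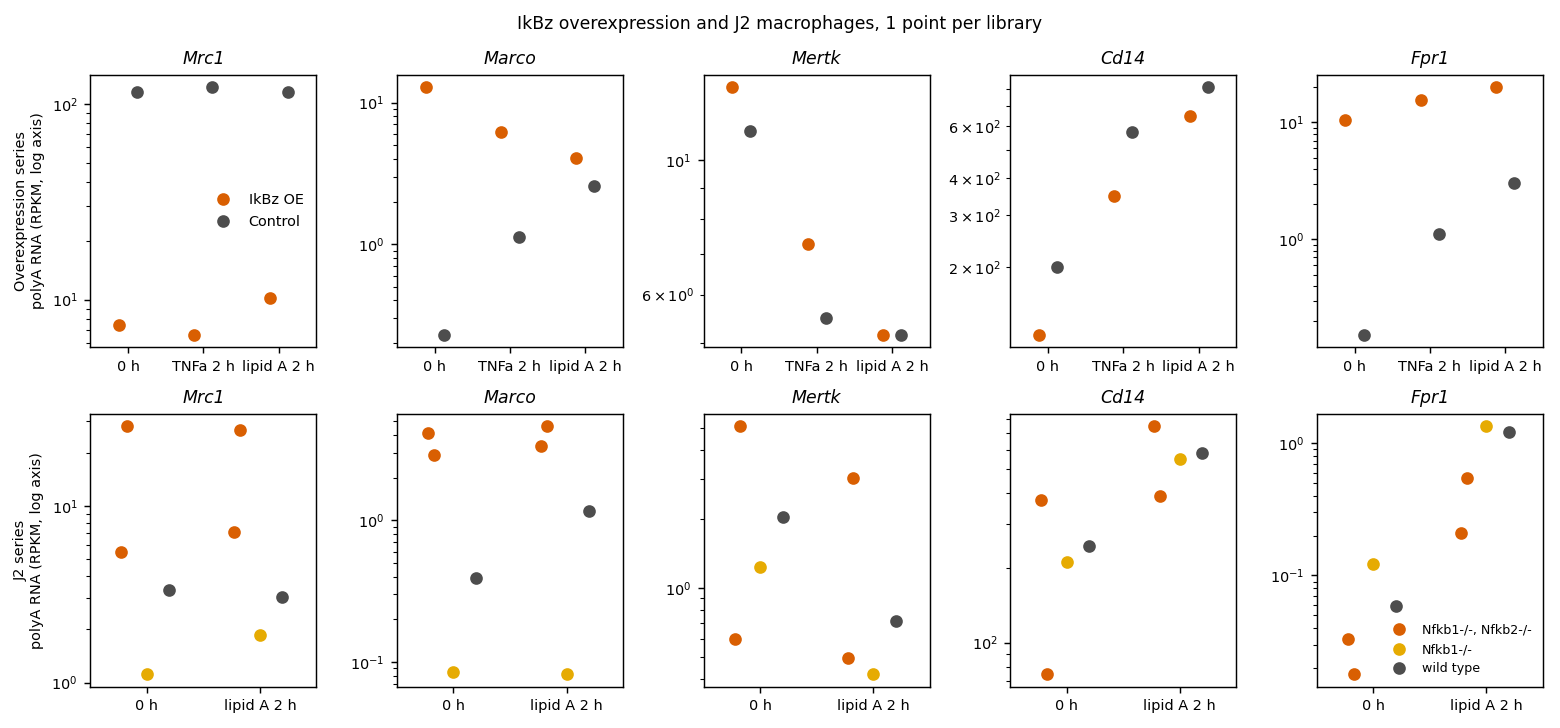
PolyA RNA of the 5 receptors (RPKM, log axis), 1 point per library: IkBz-overexpressing against control macrophages at 0 h and after 2 h of TNFa or lipid A, and J2 macrophages of 3 genotypes at 0 and 2 h of lipid A. Fpr1 is higher and Mrc1 lower with IkBz under all 3 conditions, Marco is higher at 0 h and after TNFa and within 2-fold after lipid A, and Marco is higher in both Nfkb1-/-,Nfkb2-/- libraries than in the other J2 genotypes.

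Lipid A and TNFa were compared on polyA RNA to find genes that the first turns on selectively. Of the 5 receptors, Marco and Fpr1 separated the stimuli most at 6 h. Marco read 0.242 RPKM at 0 h, then 0.133, 0.169, 0.56 and 10.6 RPKM at 0.5, 1, 2 and 6 h of lipid A, and 0.147, 0.283, 0.2 and 0.321 RPKM at those times of TNFa. At 6 h it was 33.1-fold higher with lipid A than with TNFa, when 16.4% of 9325 genes differed by 2-fold or more. Fpr1 read 0.0726 RPKM at 0 h, then 0.0666, 0.591, 1.6 and 38 RPKM with lipid A, and 0.495, 1.09, 0.701 and 3.43 RPKM with TNFa, which is 11.1-fold apart at 6 h. At the earlier times the stimuli were within 2-fold on RPKM + 0.5 for both genes, a scale that understates ratios of such low values. On RPKM itself Fpr1 was 7.44-fold higher with TNFa at 0.5 h. At 2 h Marco was 2.8-fold and Fpr1 2.28-fold higher with lipid A. Reads were not recovered for polyA libraries, so how few reads these low values rest on is not known.

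Cd14 read 234 RPKM at 0 h, then 627, 1030, 1064 and 962 RPKM with lipid A, and 548, 587, 578 and 636 RPKM with TNFa. Either stimulus thus left it above 0 h at every time. Mertk read 16.2 RPKM at 0 h, then 14.3, 13.5, 6.35 and 7.13 RPKM with lipid A, and 15.9, 14.5, 8.44 and 3.01 RPKM with TNFa, so that it was 2.37-fold higher with lipid A at 6 h. Mrc1 read 17.1 RPKM at 0 h, then 13, 17.1, 16.1 and 8.4 RPKM with lipid A, and 16.8, 18.9, 16.7 and 8.42 RPKM with TNFa, without a difference between the stimuli at 6 h. The dip of Mertk at 1 h and the early fall of Mrc1 in chromatin RNA were not seen in polyA RNA at those times.

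**Figure D4:**
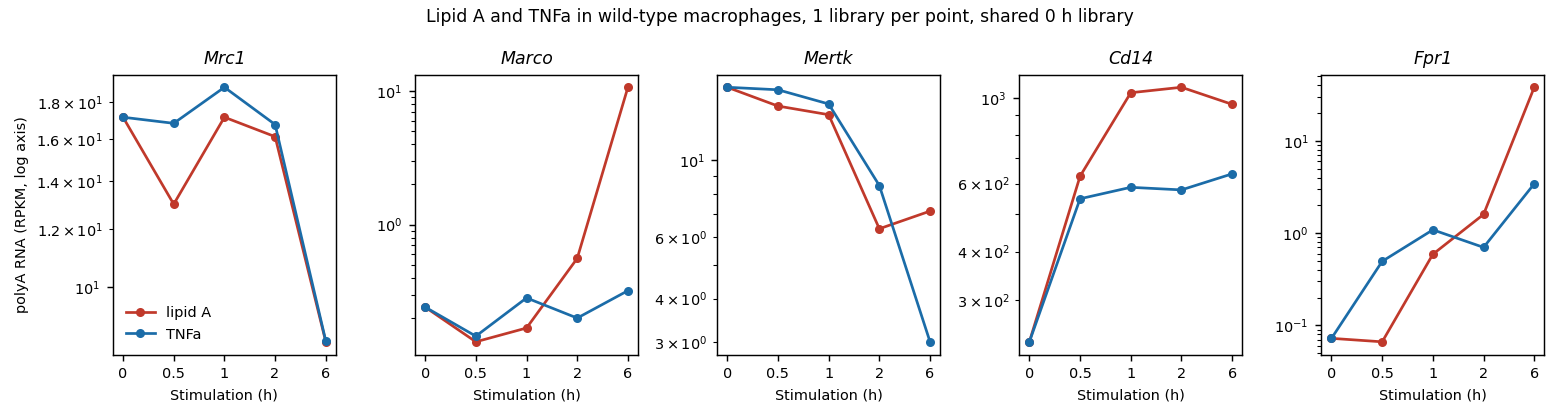
Time courses of the 5 receptors (RPKM, log axis) against hours of lipid A or TNFa in polyA RNA, 1 library per point with a shared 0 h library. With lipid A Marco and Fpr1 reach 10.6 and 38 RPKM at 6 h, against 0.321 and 3.43 RPKM with TNFa.

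In chromatin RNA under TNFa, Marco read 0.00517, 0.00981, 0.0215, 0.0653 and 0.14 RPKM from 0 to 6 h, and Fpr1 0.0141, 0.0629, 0.0438, 0.174 and 0.567 RPKM. The 6 h Marco value lay below all 10 wild-type libraries given lipid A for 6 h. That of Fpr1 lay above only the lowest of them (0.379 RPKM) and below the next (0.798 RPKM). Cd14 read 5.43, 17.1, 7.2, 7.66 and 10.2 RPKM under TNFa, with its highest value at 0.5 h as under lipid A, though below every lipid A library at that time. Mertk read 1.41, 0.837, 0.246, 0.314 and 0.427 RPKM and stayed low at 2 h, and Mrc1 read 2.19, 3.37, 0.576, 0.706 and 0.483 RPKM. These libraries belong to another series than the lipid A libraries, and the stimuli were not tested against each other.

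The ERK inhibitor series follows lipid A for 1 h and asks about the kinase arm that p105, the precursor of p50, also controls. Between 1.17% and 6.37% of 3409 genes differed by 2-fold or more between ERKi and DMSO at a time, and no member reached 2-fold on RPKM + 0.5. Mertk read 5.41, 4.61, 2.55 and 1.29 RPKM with ERKi at 0, 15, 30 and 60 min, and 4.84, 4.3, 2.42 and 0.518 RPKM with DMSO, so its decline was seen in both. Cd14 read 5.58, 34.4, 47 and 38 RPKM with ERKi and 8.49, 40, 60.5 and 45.4 RPKM with DMSO. Marco at 60 min read 0.646 RPKM with ERKi and 0.281 RPKM with DMSO, Fpr1 0.255 and 0.181, and Mrc1 0.767 and 0.586, after 0.557 and 1.4 at 0 min.

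J2 macrophages were used to ask whether p52, made from Nfkb2, covers for p50. In polyA RNA at 2 h of lipid A, Marco read 3.35 and 4.61 RPKM in Nfkb1-/-,Nfkb2-/- cells, 0.0818 RPKM in Nfkb1-/- cells and 1.16 RPKM in wild type, and at 0 h 4.13 and 2.91, 0.0843 and 0.393 RPKM. Nfkb1-/- cells were the lowest at both times, and the double knockout cells were the highest. The double knockout cells also differed in Bcl3, which was no target there. It read 0.0386 to 0.143 RPKM in them, 3.58 to 20 RPKM in Nfkb1-/- cells and 4.99 to 27.5 RPKM in wild type. The part of Bcl3 in the Marco values was not tested. Limma called 0 of the 20 member differences from wild type and 0% of 6436 genes, with the spread taken from the double knockout alone; 3 of the 20 had an unadjusted p under 0.05, and all 3 were of Marco. For the double knockout they were 2.15 at 0 h and 1.41 at 2 h, each against 1 wild-type library whose spread is unmeasured. The other one sets 1 Nfkb1-/- library against 1 wild-type library with a spread borrowed from the double knockout, and is not used.

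Fpr1 at 2 h read 0.211 and 0.549 RPKM in Nfkb1-/-,Nfkb2-/- cells, 1.35 RPKM in Nfkb1-/- cells and 1.22 RPKM in wild type, and at 0 h 0.033 and 0.0178, 0.123 and 0.0592 RPKM. Both double knockout libraries were lower than the other genotypes at both times. Mrc1 at 0 h read 5.5 and 28.2 RPKM in the double knockout, 1.11 in Nfkb1-/- and 3.32 in wild type, and Mertk 0.598 and 5.1, 1.23 and 2.04. The double knockout replicates lay far apart for both genes and also for Cd14, at 374 and 74.5 RPKM at 0 h, beside 212 in Nfkb1-/- and 246 in wild type. At 2 h Cd14 read 745 and 390 RPKM in the double knockout, 551 in Nfkb1-/- and 580 in wild type.

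The genes whose course was most like that of each receptor were found over the 40 group means of the knockout series (log2 of RPKM + 0.5, each series centred on its own mean, 2967 genes, Nfkbid replicate 1 left out). For Marco they were Lcn2 (Pearson r = 0.95), Saa3 (0.886) and Ric1 (0.876), and for Fpr1 Saa3 (0.968), Ric1 (0.957) and Ptges (0.931). Lcn2 encodes the iron-sequestering lipocalin and Saa3 an acute phase protein, both known to be made by macrophages under lipopolysaccharide. Cd14 was most like Cxcl1 (0.964), a neutrophil chemokine, Tnfsf9 (0.953) and Stx6 (0.952), and Mertk like Oxct1 (0.956), Herc1 (0.923) and Fryl (0.92). Mrc1 was most like Mir511 (0.93), which lies inside it, and then Rnf150 (0.923) and Stxbp5 (0.922). Among the members, Marco and Fpr1 were alike (0.886), and Mrc1 ran against Fpr1 (−0.801) and Marco (−0.714). All means share the 5 time points, so these values describe a shared course and carry no p.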

How the data were processed

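The authors deposited 1 table of RPKM values for 15196 genes and 136 libraries; HISAT2, SAMtools and mm9 are named in the submitters' processing notes, without versions, and the counting rule is not given in the sources used here. Libraries were made as Illumina Stranded TruSeq per the labels' protocols, whose extraction text describes chromatin RNA also for the 23 libraries labelled polyA RNA. From the deposited RPKM values, reads were recovered for the 113 chromatin libraries: per library 97.5% to 100% of the values worth up to 30 reads were whole within 0.02 of a read. Nfkbiz, Nfkbid and Nfkb2 were not analysed here.

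The main test was limma 3.58.1 (R 4.3.3; lmFit, eBayes with trend) on log2(RPKM + 0.5), per series, for genes at 1 RPKM or more in the number of libraries that 1 group holds (10 in the wild-type response, 2 in J2 cells), with Benjamini-Hochberg adjustment over all genes tested and a call at adjusted p under 0.05 and 2-fold. A fold change on this scale understates the change of low genes. The read scale used log2 of (reads + 2) per M reads and genes with 20 reads or more in that number of libraries. The error rate of either fit at the read numbers and spread of these libraries was not tested. The 5 members, the lists and the tests were chosen with earlier results of these data known, and the read scale after the members' values were seen. Named genes were the members, genes called in each list and the 3 most alike genes of each member; Gas6, Tlr4, and Fpr2 and Fcer1g in the Nfkb1 series were chosen after values were seen.

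Pairing was checked on the deviations of same-numbered libraries from their group means: r was 0.61 to 0.918 over 15 pairs in the Nfkb1 series, 0.885 to 0.969 over 15 in the Nfkbid series, 0.447 to 0.731 over 10 in the Nfkbiz series and 0.267 to 0.761 over 10 in the Bcl3 series, so the numbers were taken to pair libraries. In the Nfkbiz and Bcl3 series both pairs of a time give the same r by construction, so their 10 pairs are not 10 separate values. The labels do not say what a number marks. Alternatives were the pseudocount (0.1 or 1), no filter or a 3 RPKM filter, centring, the block, 1 fit of the 4 series, and each replicate left out. For single libraries the spread between samples is unmeasured.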

Additional observations from a re-analysis of the deposited data

Results flagged for a closer look

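Of the 25 groups of 10 wild-type libraries (5 genes at 5 times), 12 held a library whose gap to the nearest other library, as a share of the group's range, passed Dixon's critical value for 10 samples. In independent groups of normal values chance would flag about 1 in 20. Here the same 10 replicates recur at the 5 times, so the flags are not separate events. All 12 were Nfkbid wild-type replicate 1, as the highest library. For Cd14 the share was 0.962 at 0 h (237 RPKM, next 12.3), 0.953 at 0.5 h (841, next 76), 0.978 at 1 h (1397, next 44.2), 0.978 at 2 h (1299, next 34.2) and 0.963 at 6 h (531, next 22.4). For Fpr1 it was 0.925 at 0 h (0.113 RPKM, next 0.0126), 0.521 at 0.5 h (0.0843, next 0.0431), 0.485 at 1 h (0.346, next 0.196), 0.495 at 2 h (0.942, next 0.527) and 0.798 at 6 h (8.19, next 1.95). For Marco it was 0.866 at 0 h (0.0814 RPKM, next 0.0126) and 0.651 at 0.5 h. Replicate 1 of that series had 6.92 to 19.4 RPKM of Malat1, against 823 to 1640 RPKM in replicates 2 and 3. Its neutrophil and granulocyte precursor markers summed to 14.03 to 44.6 RPKM, against 0.154 to 0.715 RPKM, and its macrophage markers to 616 to 3219 RPKM, against 14.3 to 83.6 RPKM; the part of these in the receptor values was not tested.

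The lipid A response of Marco differed between Nfkbiz-/- and wild-type macrophages. On the read scale the interaction was −4.39 at 2 h (adjusted p = 0.00431, limma) and −6.80 at 6 h (adjusted p = 4.12e-05). Marco passed the filter of that scale only through wild-type libraries given lipid A. Both Nfkbiz-/- libraries were below both wild-type libraries at 1, 2 and 6 h.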

How the results depend on the processing

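No call was reversed by any alternative run. In the Nfkb1 series the count of member calls was 0 and was 1 on the read scale, 3 on the read scale with the replicate block, 2 on the read scale without wild-type replicate 2 (0 to 2 over the 6 fits without a replicate), 1 in 1 fit of the 4 series and 1 with no filter. In the Nfkbiz series it was 1 and was 6 on the read scale, 8 on the read scale with the replicate block, 4 with the replicate block, 4 with the block at each time, 3 with no filter and 0 in 1 fit of the 4 series. It was 0 to 1 over the fits without a replicate (0 without Nfkbiz-/- replicate 2 or wild-type replicate 1), and 2 to 5 on the read scale. In the Bcl3 series it was 0, and 1 without Bcl3-/- replicate 2 (Mrc1 at 0.5 h, −1.72, adjusted p = 0.0245, limma). For lipid A in wild type it was 6, and 14 on the read scale with or without Nfkbid replicate 1. In the Nfkbid series and J2 cells it was 0 throughout. The causes were not tested, and the read scale tests 5 members in place of 3. At 6 h in the Nfkbiz series 5.47% of all genes were called in the main fit and 6.1% with the block. On the read scale it was 15.1%, and 19.8% with the block. No share of all genes is given for the fits with no filter, with the block at each time, of the 4 series or without a replicate. Nothing particular to the members is read from those counts. The replicate block changed no knockout call of a member in the Bcl3 and Nfkbid series. On the RPKM scale it added Mertk at 2 h (1.03, adjusted p = 0.0255), Mrc1 at 6 h (1.58, 7.57e-05) and Cd14 at 6 h (−1.16, 0.0288) in the Nfkbiz series. For J2 cells no paired analysis was possible because their wild type has 1 library per time. Marco and Fpr1 at 0 h rest on few reads, and 2 replicates limit the Nfkbiz and Bcl3 series.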

Other observations

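In J2 macrophages Bcl3, a nuclear IkB gene that was no target there, read 0.0386 to 0.143 RPKM in the 4 Nfkb1-/-,Nfkb2-/- libraries, against 3.58 and 20 RPKM in the 2 Nfkb1-/- libraries and 4.99 and 27.5 RPKM in the 2 wild-type libraries. Marco was highest in those same 4 libraries.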
